A study of Homo sapiens with 8 samples.

Results

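The genes described here build and run the mitotic spindle. They are 35 genes of mitosis, taken by symbol from the annotation of the array, which names 17687 genes, with the brightest probe set used where a gene had several, although each of the 35 had 1. Expression was measured on 8 one-colour arrays in 2 T cell lines. MT-1 carries an ATL label (adult T cell leukaemia), and MT-2 the label of infection with HTLV-1, the retrovirus that causes this leukaemia. Each line had 1 array per condition. MT-1 was given 500 nM of the DNA demethylating agent OR21, 2500 nM of the EZH2 inhibitor EPZ-6438, or both, and MT-2 was given 100 nM OR21, 500 nM EPZ-6438, or both. An untreated array accompanied each line, compounds went in at seeding and again at 48 h, and exposure lasted 96 h. All values are signal as deposited, taken as log2, so a difference of 1 is read as a 2-fold difference. Because doses differed by line, line and dose cannot be told apart in any response.

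Mitosis is driven by CDK1 bound to B-type cyclins, and by the kinases PLK1, AURKA and AURKB. Kinetochores tie chromosomes to microtubules, the spindle checkpoint holds the cell in metaphase until all are attached, and the anaphase-promoting complex with CDC20 then destroys securin and cyclin B. Most of these genes are switched on late in the cell cycle and are silent in resting cells, so their transcripts are widely used as a readout of how many cells in a culture are dividing. In a bulk sample, fewer dividing cells and less RNA per dividing cell cannot be told apart. Their promoters are known for the cell cycle homology region, or CHR, which the DREAM and MuvB complexes bind, and for CCAAT boxes, which NF-Y binds.

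RefSeq promoters, 250 bases before to 50 bases after the first listed start of a gene, were found for 30 of the 35 genes. CHR was searched as TTTGAA and its reverse complement TTCAAA, and the CCAAT box as CCAAT and ATTGG. A CHR match lay in 21 of 30 promoters (70.0%), against 15.4% of the 27305 promoters in the table, and a CCAAT match in 24 of 30 (80.0%), against 35.7%. Both lay in 18 of 30 (60%), against 6.08%, and neither in 3 (CDC25C, CENPE and KIF2C). A CHR match overlapped a CCAAT match in the promoters of CDCA8 and MKI67. The next 4 promoters belong to genes named in the results below. CCNB2 and DLGAP5 were among the lowest with OR21 in MT-2, and CDC20 differed most between the lines. NUF2 was the 1 of 35 genes called higher with OR21 in MT-1, where 8.07% of all probe sets tested were. That call was lost with arrays centred on their medians. Capitals mark the CHR and CCAAT matches, and each sequence is written 5′ to 3′ on the strand of its gene. The 4 promoters are CCNB2 (GRCh38.p14, chr15:59104896-59105195, plus strand), DLGAP5 (GRCh38.p14, chr14:55191536-55191835, minus strand), CDC20 (GRCh38.p14, chr1:43358731-43359030, plus strand) and NUF2 (GRCh38.p14, chr1:163321704-163322003, plus strand).
CCNB2: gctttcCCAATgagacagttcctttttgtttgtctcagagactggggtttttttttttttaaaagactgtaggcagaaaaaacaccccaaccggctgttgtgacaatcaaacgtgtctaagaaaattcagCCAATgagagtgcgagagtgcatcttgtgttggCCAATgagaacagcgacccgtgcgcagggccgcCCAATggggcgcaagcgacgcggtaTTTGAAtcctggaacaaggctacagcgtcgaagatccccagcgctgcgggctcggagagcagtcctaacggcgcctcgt
DLGAP5: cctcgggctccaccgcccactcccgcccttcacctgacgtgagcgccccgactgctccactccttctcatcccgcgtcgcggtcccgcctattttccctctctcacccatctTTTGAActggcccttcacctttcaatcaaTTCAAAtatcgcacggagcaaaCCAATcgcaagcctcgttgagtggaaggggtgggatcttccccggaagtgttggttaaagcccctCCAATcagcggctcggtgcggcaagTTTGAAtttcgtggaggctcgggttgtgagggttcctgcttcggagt
CDC20: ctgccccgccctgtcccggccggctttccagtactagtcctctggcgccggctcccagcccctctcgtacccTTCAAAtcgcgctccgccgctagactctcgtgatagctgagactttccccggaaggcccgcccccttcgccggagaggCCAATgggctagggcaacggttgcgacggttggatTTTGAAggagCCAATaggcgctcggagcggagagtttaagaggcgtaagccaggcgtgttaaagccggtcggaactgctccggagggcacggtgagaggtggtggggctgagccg
NUF2: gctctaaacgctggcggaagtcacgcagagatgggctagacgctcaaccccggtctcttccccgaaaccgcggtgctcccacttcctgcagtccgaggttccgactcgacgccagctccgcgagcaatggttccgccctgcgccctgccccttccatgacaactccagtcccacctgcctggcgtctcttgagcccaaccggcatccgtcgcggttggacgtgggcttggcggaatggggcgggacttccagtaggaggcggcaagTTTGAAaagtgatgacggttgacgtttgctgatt
In CCNB2 the CHR match began 29 bases before the start site, after 4 CCAAT matches. DLGAP5 held 3 CHR and 2 CCAAT matches, CDC20 2 of each, and NUF2 1 CHR match that began 16 bases after the start and no CCAAT match.

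**Figure D1:**
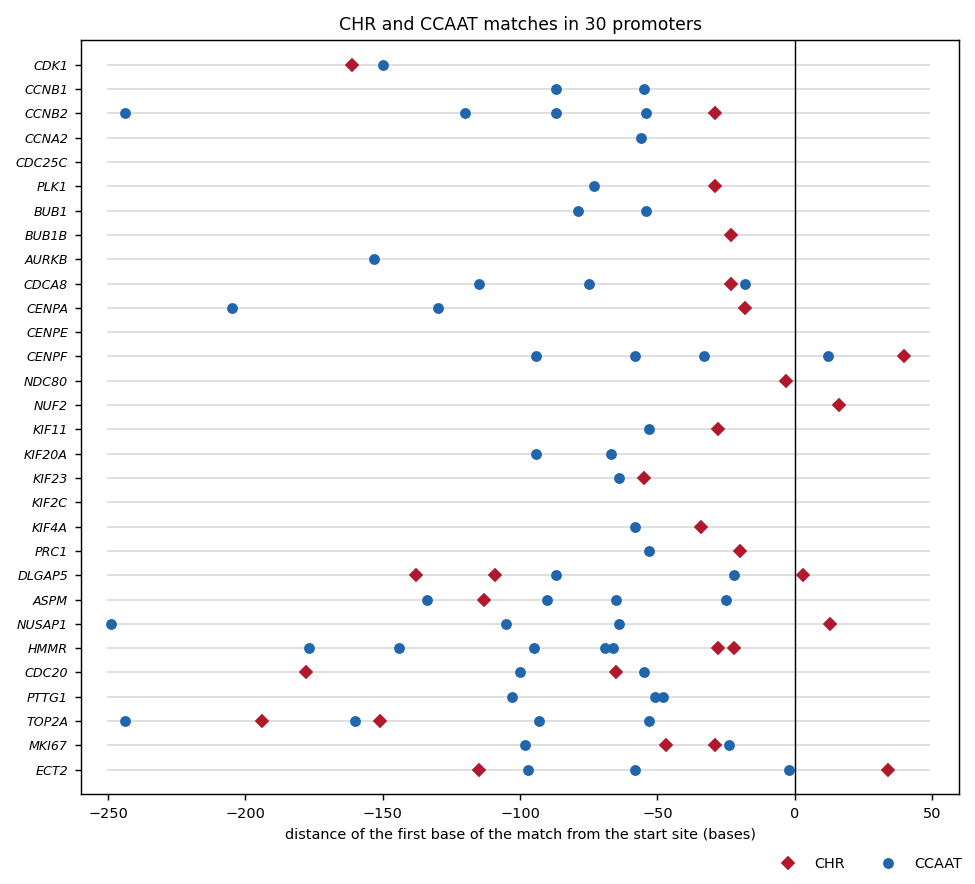
Positions of CHR matches (diamonds) and CCAAT matches (circles) in the promoters of 30 mitotic genes, by the distance of the first base of the match from the start site in bases. Most genes have a match within about 100 bases before the start, and 3 promoters hold neither.

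The table held 21448 transcript probe sets, and 12942 were kept because their highest value reached the median of the table. All 35 mitotic genes were kept. A background level was set for each array at the 95th percentile of its negative controls, between 7.19 and 7.80. Of the 35 genes, 32 lay above it on all 8 arrays, and CDC25C, BIRC5 and CENPA fell to or under it on some MT-2 arrays. T cell identity was partly visible. Of 14 T cell markers found, 6 were above background on each MT-1 array and 5 or 6 on an MT-2 array. Their summed linear signal ran from 42956 with both agents to 84088 untreated in MT-1. In MT-2 it ran from 106200 untreated to 136175 with OR21. CD5, CD247, CCR4 and IL2RA stood above background on all 8 arrays, while CD3D, CD3E, CD3G, CD2 and LCK did so on none and CD4 did so on the MT-2 arrays only. Of 17 markers of other cell types found, between 0 and 4 were above background on an MT-1 array and between 1 and 2 on an MT-2 array. Their summed linear signal ran from 798 to 2766 in MT-1, highest with both agents, where EPCAM, KRT18, HBA1 and CD79A stood above background, and from 2982 to 3989 in MT-2, mostly NKG7. The part of these genes in the results below was not tested.

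The widest separation among the mitotic genes lay between the lines. MT-1 carried more signal than MT-2 for 31 of 35 genes on the untreated arrays, with a median difference of 1.08, against 60.2% of all kept probe sets and a median of 0.29. For 30 of 35 genes the lowest of the 4 MT-1 arrays stood above the highest of the 4 MT-2 arrays, which held for 36.4% of kept probe sets. A model, limma with line and treatment fitted to the 8 arrays and Benjamini-Hochberg adjustment over all kept probe sets, called 29 genes higher and 1 lower in MT-1, where 40.7% of kept probe sets were called higher and 22.7% lower. Here p measures the spread of the line difference over 4 treatment conditions with 1 culture each, since nothing in the labels gives separate cultures.

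CDC20, the activator of the anaphase-promoting complex, differed most. It stood at 14.78 with OR21, 15.01 with EPZ-6438, 15.13 with both and 14.96 untreated in MT-1, and at 12.02 with OR21, 12.85 with EPZ-6438, 12.16 with both and 12.54 untreated in MT-2. No MT-2 array came near the lowest MT-1 array, and the line difference was 2.58 ± 0.18 (SE, adjusted p = 7.62e-05). The chromosomal passenger complex, which corrects faulty attachments, was close behind. BIRC5, or survivin, stood at 10.43 with OR21, 10.39 with EPZ-6438, 10.36 with both and 10.89 untreated in MT-1, and at 7.41 with OR21, 8.53 with EPZ-6438, 7.73 with both and 8.49 untreated in MT-2, where the OR21 value was not above background. CDCA8, or borealin, stood at 12.24 with OR21, 12.40 with EPZ-6438, 12.34 with both and 12.18 untreated in MT-1, and at 9.51 with OR21, 10.22 with EPZ-6438, 9.76 with both and 10.39 untreated in MT-2. Their line differences were 2.48 ± 0.21 (SE, adjusted p = 0.00017) and 2.32 ± 0.19 (SE, adjusted p = 0.000158). AURKB, the kinase of that complex, differed less. It stood at 11.46 with OR21, 11.73 with EPZ-6438, 11.63 with both and 11.83 untreated in MT-1, and at 10.68 with OR21, 10.92 with EPZ-6438, 10.40 with both and 10.75 untreated in MT-2, a line difference of 0.98 ± 0.15 (SE, adjusted p = 0.00174).

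**Figure D2:**
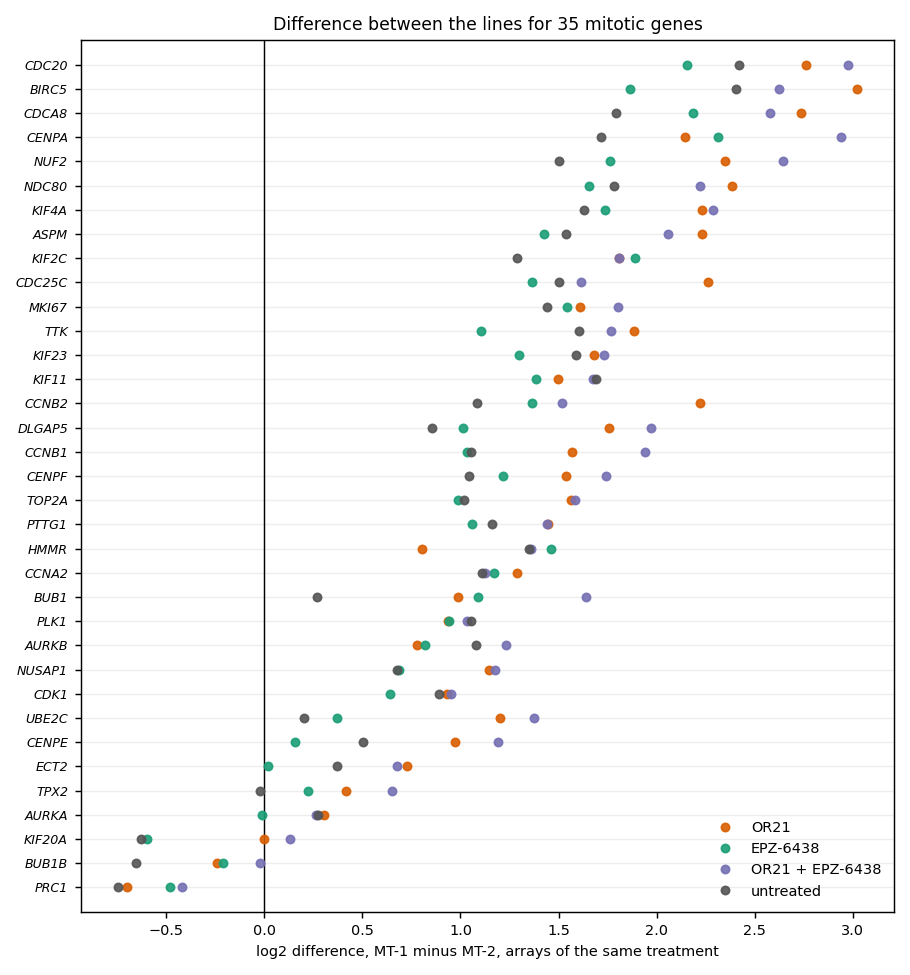
Log2 difference of MT-1 minus MT-2 for 35 mitotic genes (rows, ordered by the mean), with 1 point for each treatment, each from 1 array per line. CDC20 lies highest, and PRC1, BUB1B and KIF20A lie lowest.

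Kinetochore genes followed. NDC80 and NUF2, which together form the microtubule-binding arm of the NDC80 complex, differed by 2.01 ± 0.18 (SE, adjusted p = 0.00019) and 2.06 ± 0.22 (SE, adjusted p = 0.00043), and CENPA, the histone H3 variant of centromeres, by 2.28 ± 0.22 (SE, adjusted p = 0.000267), with 1 of its 4 MT-2 arrays under background. The same held for 1 MT-2 array of BIRC5 and 2 of CDC25C. The line difference was also above 1.5 for the kinesins KIF4A, KIF2C, KIF23 and KIF11, for the checkpoint kinase TTK, for CCNB2, for the phosphatase CDC25C, which activates CDK1, for the spindle pole protein ASPM and for the proliferation antigen MKI67. MKI67 stood at 14.57 with OR21, 14.76 with EPZ-6438, 14.70 with both and 14.57 untreated in MT-1, and at 12.97 with OR21, 13.22 with EPZ-6438, 12.89 with both and 13.13 untreated in MT-2. The groups did not overlap, and the line difference was 1.60 ± 0.14 (SE, adjusted p = 0.00018).

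The central kinases stood closer together. CDK1 stood at 11.66 with OR21, 11.81 with EPZ-6438, 11.77 with both and 11.64 untreated in MT-1, and at 10.72 with OR21, 11.16 with EPZ-6438, 10.82 with both and 10.75 untreated in MT-2, a line difference of 0.85 ± 0.14 (SE, adjusted p = 0.00221) whose call was lost with cyclic loess (0.35, adjusted p = 0.0707). PLK1, which acts from mitotic entry to cytokinesis, stood at 14.84 with OR21, 15.14 with EPZ-6438, 15.08 with both and 14.99 untreated in MT-1, and at 13.90 with OR21, 14.20 with EPZ-6438, 14.05 with both and 13.93 untreated in MT-2, a line difference of 0.99 ± 0.13 (SE, adjusted p = 0.000923). AURKA, which matures spindle poles, did not separate. It stood at 13.25 with OR21, 13.14 with EPZ-6438, 13.20 with both and 13.26 untreated in MT-1, and at 12.95 with OR21, 13.15 with EPZ-6438, 12.93 with both and 12.99 untreated in MT-2. These arrays overlapped between the lines, and AURKA was not called (0.21 ± 0.14 SE, adjusted p = 0.225).

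Of the 35 genes, 3 had a negative line difference. PRC1, which bundles microtubules at the spindle midzone, stood at 11.56 with OR21, 11.53 with EPZ-6438, 11.63 with both and 11.35 untreated in MT-1, and at 12.26 with OR21, 12.01 with EPZ-6438, 12.05 with both and 12.10 untreated in MT-2, and was the 1 gene called lower in MT-1 (-0.59 ± 0.14 SE, adjusted p = 0.0108). That call was lost without the OR21 array of either line (-0.55, adjusted p = 0.0535). The checkpoint protein BUB1B stood at 12.02 with OR21, 11.80 with EPZ-6438, 11.95 with both and 11.62 untreated in MT-1, and at 12.26 with OR21, 12.01 with EPZ-6438, 11.97 with both and 12.28 untreated in MT-2 (-0.28 ± 0.16 SE, adjusted p = 0.16). The cytokinesis kinesin KIF20A stood at 10.20 with OR21, 9.78 with EPZ-6438, 10.43 with both and 9.64 untreated in MT-1, and at 10.20 with OR21, 10.38 with EPZ-6438, 10.29 with both and 10.27 untreated in MT-2 (-0.28 ± 0.19 SE, adjusted p = 0.24). Both overlapped between the lines and were not called, and neither were TPX2 (0.32 ± 0.16 SE, adjusted p = 0.131) and ECT2 (0.45 ± 0.17 SE, adjusted p = 0.0591). With cyclic loess, which also evens out differences that depend on brightness, 28 genes were called, 25 higher and 3 lower in MT-1. Of 12942 kept probe sets, 3912 were then called higher and 3946 lower. ECT2 turned to -0.03 with cyclic loess. Besides that of CDK1, the calls of BUB1 (0.52, adjusted p = 0.117), CENPE (0.20, adjusted p = 0.462) and UBE2C (0.28, adjusted p = 0.367) were lost under it. Those of CENPE and UBE2C were also lost without the OR21 or the combination array of either line, and ECT2 was called with centred arrays (adjusted p = 0.0459) and without the EPZ-6438 array of either line (adjusted p = 0.047). Under cyclic loess the median of all kept probe sets between the untreated lines moved to -0.02 and that of the mitotic genes to 0.61, with 26 of 35 above 0.

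**Figure D3:**
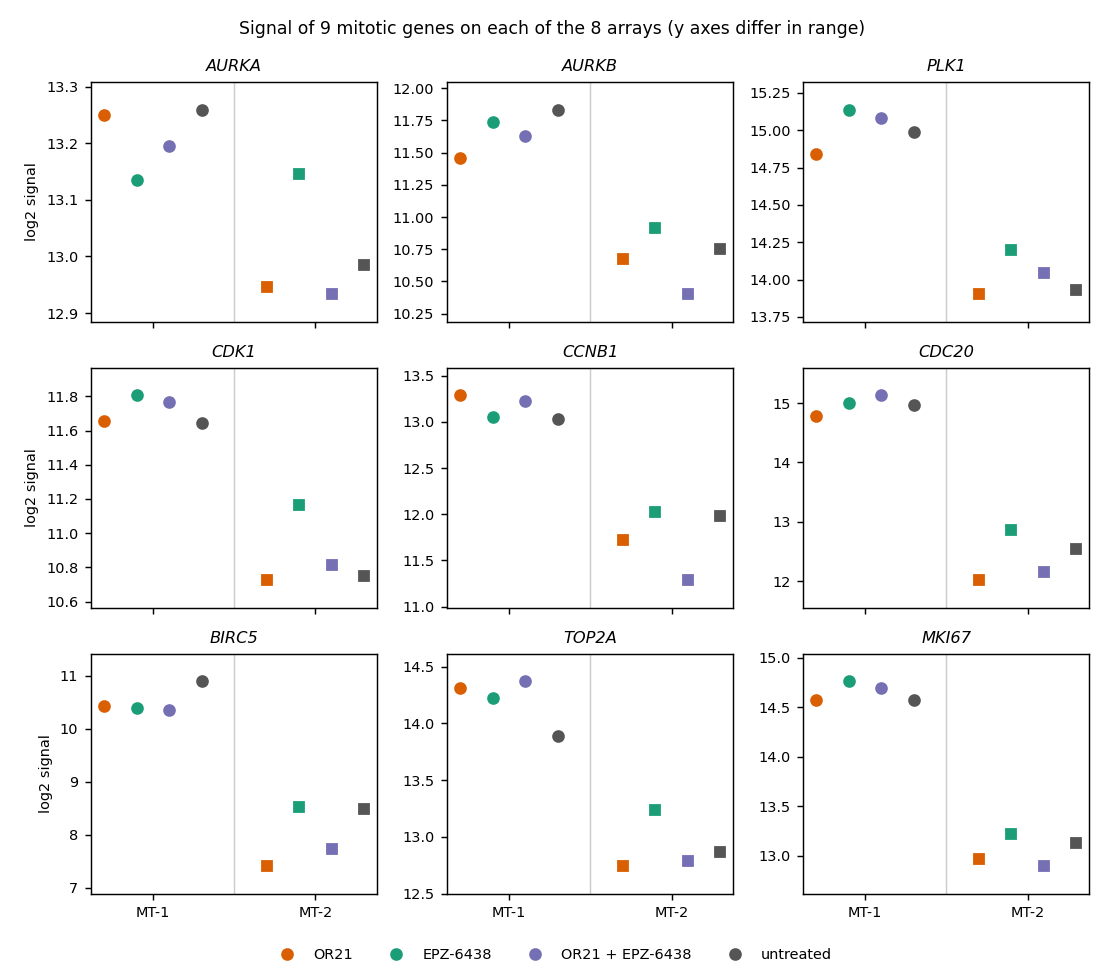
Log2 signal (y axis, range differs by panel) of 9 mitotic genes on each of the 8 arrays, MT-1 as circles on the left and MT-2 as squares on the right, coloured by treatment. MT-1 arrays lie above MT-2 arrays in every panel except AURKA, where the MT-2 array with EPZ-6438 (13.15) meets the MT-1 array with EPZ-6438 (13.14).

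CCNA2, the A-type cyclin of late interphase and mitotic entry, lay between 13.56 and 13.79 on the MT-1 arrays and between 12.43 and 12.65 on the MT-2 arrays. PTTG1, or securin, the inhibitor of separase, lay between 12.08 and 12.16 on the MT-1 arrays and between 10.63 and 11.10 on the MT-2 arrays. NUSAP1, which bundles spindle microtubules, lay between 13.27 and 13.61 on the MT-1 arrays and between 12.17 and 12.74 on the MT-2 arrays. All of these kept the lines apart. CENPF, a protein of the outer kinetochore, lay between 13.09 and 13.45 on the MT-1 arrays and between 11.61 and 12.23 on the MT-2 arrays. KIF11, the kinesin that pushes spindle poles apart, lay between 12.04 and 12.19 on the MT-1 arrays and between 10.37 and 10.78 on the MT-2 arrays. KIF23, the kinesin of the central spindle, lay between 12.86 and 13.02 on the MT-1 arrays and between 11.27 and 11.57 on the MT-2 arrays. The lines stood apart here too. KIF4A, a kinesin of chromosome arms and midzone, lay between 10.54 and 10.71 on the MT-1 arrays and between 8.42 and 8.94 on the MT-2 arrays. TPX2, the activator of AURKA on the spindle, lay between 12.12 and 12.46 on the MT-1 arrays and between 11.74 and 12.24 on the MT-2 arrays. TPX2 overlapped between the lines and KIF4A did not. ASPM, which focuses spindle poles, lay between 13.10 and 13.55 on the MT-1 arrays and between 11.31 and 11.72 on the MT-2 arrays. NDC80, the kinetochore protein introduced above, lay between 11.28 and 11.43 on the MT-1 arrays and between 9.05 and 9.63 on the MT-2 arrays. CDC25C lay at 9.22 or above in MT-1 and near background in MT-2.

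The next question is what OR21 alone did, with 1 array against 1 in each line and so no replicate check. In MT-1, 32 of 35 mitotic genes stayed within 0.5 of the untreated array, against 67.5% of kept probe sets. Of the 35, 0 were lower by 0.5 or more (17.9% of kept probe sets) and 3 were higher (14.6%), and 25 lay above 0 (45.2%). In MT-2, 25 of 35 stayed within 0.5 (75.3%). There 10 were lower by 0.5 or more (14.5% of kept probe sets) and 0 were higher (10.2%), 29 lay below 0 (56.3%), and 2 were lower by 1 or more (1.69%), CCNB2 and BIRC5. BIRC5 was under background on that array, and raising such levels to background left 9 lower by 0.5 and 1 lower by 1. The median of the mitotic genes was 0.11 (MT-1) or -0.16 (MT-2), and that of all kept probe sets was -0.06 in both lines. Set against the arrays that differ by OR21 alone, 29 of 35 were lower on both MT-2 arrays with OR21 than on their counterparts without it (35.3% of kept probe sets). In MT-1, 6 were lower on both (41%) and 15 were higher on both (32%). These directions depended on scaling. With arrays centred on their medians, 15 of 35 lay above 0 with OR21 in MT-1, where the median of all kept probe sets was -0.22, and with cyclic loess 22 of 35 lay below 0 with OR21 in MT-2 and 5 were lower by 0.5 or more. In MT-1, 7 were then higher by 0.5 or more with OR21.

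The genes lower in MT-2 act at several stages. CCNB2, a B-type cyclin, stood at 10.30 with OR21, 11.11 with EPZ-6438, 10.59 with both and 11.46 untreated in MT-2. Both arrays with OR21 lay below both without it, and the differences from untreated were -1.17 with OR21 and -0.87 with both agents. In MT-1, CCNB2 stood at 12.52 with OR21, 12.47 with EPZ-6438, 12.11 with both and 12.55 untreated. BIRC5 reached background with OR21 in MT-2 (-0.93 or lower), and in MT-1 it differed by -0.46, the lowest of the 35 there. CDCA8 differed by -0.89 (MT-2) and 0.06 (MT-1). UBE2C, the ubiquitin-conjugating enzyme of the anaphase-promoting complex, stood at 9.77 with OR21, 10.48 with EPZ-6438, 9.94 with both and 10.65 untreated in MT-2, again with both OR21 arrays lowest, a difference of -0.89 for OR21. DLGAP5, which stabilises kinetochore fibres, stood at 11.52 with OR21, 12.25 with EPZ-6438, 11.28 with both and 12.20 untreated in MT-2, where the same ranking held, with -0.68 for OR21. In MT-1, DLGAP5 stood at 13.28 with OR21, 13.26 with EPZ-6438, 13.25 with both and 13.05 untreated, a range far narrower than in MT-2. NDC80 (-0.57), the checkpoint kinase BUB1 (-0.53), CDC20 (-0.53) and KIF4A (-0.52) were lower as well. CDC25C completed the count, but it was not above background on the OR21 or the untreated MT-2 array, so no difference is given.

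The highest values with OR21 in MT-2 were small. HMMR, a spindle assembly factor, stood at 9.88 with OR21, 9.70 with EPZ-6438, 9.58 with both and 9.59 untreated in MT-2, and at 10.69 with OR21, 11.16 with EPZ-6438, 10.94 with both and 10.94 untreated in MT-1, so OR21 was highest in one line and lowest in the other. CENPA differed by 0.22 in MT-2. Its level was 10.33 with OR21, 10.24 with EPZ-6438, 10.29 with both and 9.68 untreated in MT-1, where all 3 treated arrays lay above the untreated one (0.65 with OR21), and 8.18 with OR21, 7.93 with EPZ-6438, 7.35 with both and 7.96 untreated in MT-2. NUF2 was the highest in MT-1. It stood at 13.42 with OR21, 13.05 with EPZ-6438, 13.68 with both and 12.67 untreated in MT-1, and at 11.08 with OR21, 11.29 with EPZ-6438, 11.03 with both and 11.17 untreated in MT-2. Each treated MT-1 array exceeded the untreated one, by 0.75 with OR21, while the MT-2 arrays spanned a narrow range. KIF20A was the other member higher by 0.5 or more in MT-1 (0.56).

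**Figure D4:**
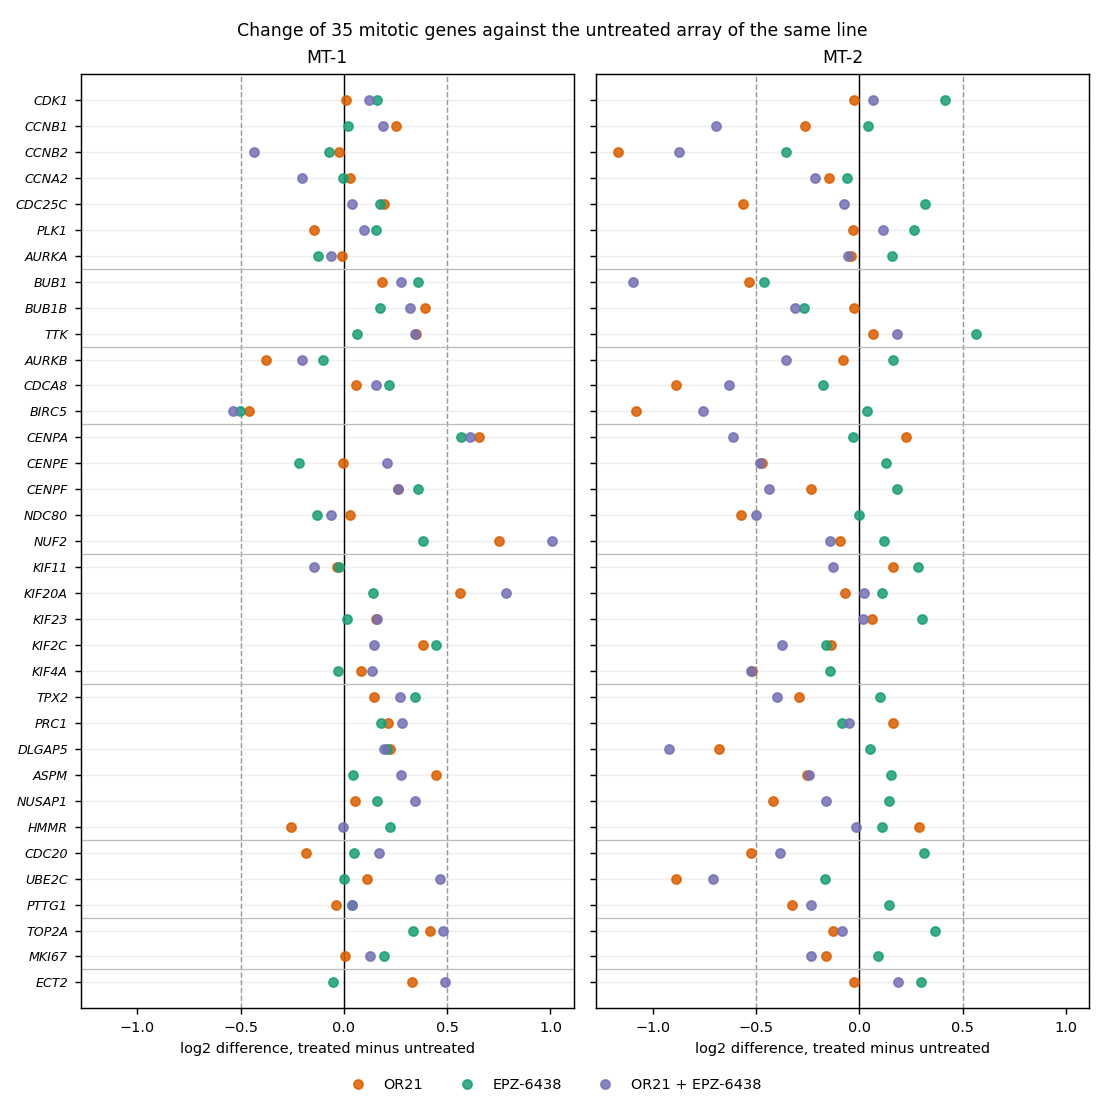
Log2 difference of each treated array from the untreated array of the same line for 35 mitotic genes (rows, grouped by role), MT-1 on the left and MT-2 on the right, 1 array against 1. Dashed lines mark 0.5 either way. In MT-2 the points with OR21 alone or both agents lie mostly left of 0 and those with EPZ-6438 mostly right.

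EPZ-6438 alone moved these genes least. In MT-1, 33 of 35 stayed within 0.5 of untreated and in MT-2 34 of 35, against 85% and 86% of kept probe sets. In MT-1, 1 gene was higher by 0.5 or more (7.73% of kept probe sets) and 1 lower (7.23%), and in MT-2, 1 was higher (7.55%) and 0 lower (6.49%). In each line 24 of 35 lay above 0, where 46.9% (MT-1) and 47.8% (MT-2) of kept probe sets did. The median was 0.14 (MT-1) or 0.11 (MT-2). The gene that moved up most in MT-2 was TTK, the checkpoint kinase also called MPS1. It stood at 12.64 with OR21, 12.36 with EPZ-6438, 12.64 with both and 12.29 untreated in MT-1, and at 10.76 with OR21, 11.25 with EPZ-6438, 10.87 with both and 10.69 untreated in MT-2, a difference of 0.56 for EPZ-6438 in MT-2. CDK1 followed (0.41). BUB1 was lowest in MT-2 (-0.46), before CCNB2 (-0.35). In MT-1, BIRC5 was lowest (-0.50) and CENPA highest (0.57). The kinesin CENPE, which moves chromosomes to the spindle equator, stood at 11.48 with OR21, 11.26 with EPZ-6438, 11.69 with both and 11.48 untreated in MT-1, and at 10.51 with OR21, 11.11 with EPZ-6438, 10.50 with both and 10.98 untreated in MT-2. Its EPZ-6438 array was the lowest of MT-1 and the highest of MT-2. KIF2C, a kinesin that shortens microtubules, stood at 12.40 with OR21, 12.46 with EPZ-6438, 12.16 with both and 12.02 untreated in MT-1, and at 10.59 with OR21, 10.57 with EPZ-6438, 10.35 with both and 10.73 untreated in MT-2, so that every treated array lay above untreated in MT-1 and below it in MT-2.

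The combination is the comparison the design text names. In MT-1, 31 of 35 mitotic genes stayed within 0.5 of untreated, and 51.9% of kept probe sets did. There 3 genes were higher by 0.5 or more (22.4% of kept probe sets), 1 of them, NUF2, by 1 or more (11.2%), and 1 was lower (25.7%), while 27 lay above 0 (46.6%). In MT-2, 25 stayed within 0.5 (68.5%), 10 were lower (15.1%), 1 of them, BUB1, by 1 or more (1.95%), 0 were higher (16.4%) and 29 lay below 0 (51.5%). The 10 include CENPA, which was under background with both agents, and 9 remain with levels under background set to it. Of these 10, 8 were also lower by 0.5 or more with OR21 alone, namely BIRC5, BUB1, CCNB2, CDCA8, DLGAP5, KIF4A, NDC80 and UBE2C. Both counts share the untreated MT-2 array. The median was 0.17 (MT-1) or -0.24 (MT-2), beside -0.05 (MT-1) or -0.02 (MT-2) for all kept probe sets. With centred arrays, 14 of 35 lay above 0 in MT-1, with a median of -0.06 beside -0.29 for all kept probe sets, 2 were lower by 0.5 or more there and NUF2 differed by 0.77, and in MT-2 31 lay below 0. Under cyclic loess the MT-1 counts past 0.5 became 9 higher and 0 lower. Over all 3 treatments, 20 genes stood above untreated on every treated MT-1 array (25.7% of kept probe sets) and 5 below (33.4%). On the MT-2 arrays 2 stood above (23.5%) and 9 below (30.2%). Above on every treated MT-1 array and below on every treated MT-2 array were 4 genes (5.61%), BUB1, BUB1B, CDCA8 and KIF2C. With both agents in MT-1, centring turned CDCA8 to -0.08 and KIF2C to -0.09. With OR21 in MT-2, cyclic loess turned BUB1B to 0.07. Of the 4, BUB1 alone kept these directions in both scalings, but centring left it at only 0.04 with both agents in MT-1.

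BUB1, which recruits checkpoint proteins to kinetochores, was lowest in MT-2. It stood at 12.50 with OR21, 12.68 with EPZ-6438, 12.60 with both and 12.32 untreated in MT-1, and at 11.52 with OR21, 11.59 with EPZ-6438, 10.96 with both and 12.05 untreated in MT-2. In MT-1 the treated arrays lay above the untreated one, and in MT-2 below it, by -1.09 for both agents. DLGAP5 came next at -0.92. CCNB1, the main mitotic cyclin, stood at 13.29 with OR21, 13.05 with EPZ-6438, 13.22 with both and 13.03 untreated in MT-1, and at 11.72 with OR21, 12.02 with EPZ-6438, 11.29 with both and 11.98 untreated in MT-2. The MT-2 array with both agents was the lowest (-0.69), and in MT-1 the arrays spread over a narrow range. CENPA in MT-2 differed by -0.32 or lower with both agents, where it reached background. ECT2, the exchange factor that starts the cleavage furrow, had the highest value in MT-2, 0.19, and stood at 10.32 with OR21, 9.93 with EPZ-6438, 10.48 with both and 9.99 untreated in MT-1, and at 9.59 with OR21, 9.91 with EPZ-6438, 9.80 with both and 9.61 untreated in MT-2. In MT-1, NUF2 was higher by 1.01 and KIF20A by 0.78, while BIRC5 (-0.54) and CCNB2 (-0.44) were lowest. TOP2A, the topoisomerase that untangles sister chromatids, stood at 14.31 with OR21, 14.23 with EPZ-6438, 14.37 with both and 13.89 untreated in MT-1, and at 12.74 with OR21, 13.24 with EPZ-6438, 12.79 with both and 12.87 untreated in MT-2. All treated MT-1 arrays exceeded the untreated one, by 0.34 to 0.48, and in MT-2 EPZ-6438 alone did.

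Across both lines, limma with line and treatment called 0 of 35 genes, and 0 of 12942 probe sets, for OR21, EPZ-6438 or both against untreated, for both agents against either one, and for the excess of both agents over the sum of the single ones. At an unadjusted p under 0.05 it held 1079, 285 and 2489 probe sets for the 3 treatments, among them 1 mitotic gene, BIRC5, lower with OR21 (5.12% of kept probe sets were lower at that level). Its estimate was -0.77 ± 0.30 (SE, adjusted p = 0.587). This fit treats the lines as repeats, so opposite responses widen its error. Centring the arrays put 2 mitotic genes lower at that level for OR21 and 2 lower for the combination. Of 12942 kept probe sets, 1005 and 1965 were then lower, so neither count exceeded the share of all kept probe sets.

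A factorial model asked for the effect of each agent within a line. It was chosen after the values were seen. It averaged arrays with and without the other agent, assumed that the agents add on the log2 scale, and had 2 residual degrees of freedom. For OR21 in MT-2, 33 of 35 estimates lay below 0 (median -0.30, against -0.03 for all kept probe sets), but 0 of 35 genes were called lower or higher (0.147% of kept probe sets called lower and 0.742% higher). At an unadjusted p under 0.05, 12 were lower and 0 higher, against 8.55% and 7.67% of kept probe sets. The estimates were -0.94 ± 0.20 (SE, adjusted p = 0.106) for BIRC5, -0.84 ± 0.22 (SE, adjusted p = 0.162) for CCNB2, -0.83 ± 0.19 (SE, adjusted p = 0.12) for DLGAP5, -0.71 ± 0.20 (SE, adjusted p = 0.173) for UBE2C, -0.67 ± 0.19 (SE, adjusted p = 0.183) for CDCA8 and -0.61 ± 0.18 (SE, adjusted p = 0.198) for CDC20. When the prior variance was allowed to follow brightness, 4 of these were called, namely DLGAP5 (adjusted p = 0.0115), CDC20 (adjusted p = 0.025), CCNB2 and BIRC5 (adjusted p = 0.0328 each). Without the MT-2 EPZ-6438 array or the MT-2 combination array, 29 estimates lay below 0 and the unadjusted count was 4, and without the MT-2 OR21 array or the untreated MT-2 array they were 34 and 3.

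In MT-1 the same fit put 23 of 35 estimates for OR21 above 0 (median 0.05, against -0.05 for all kept probe sets). NUF2 was called higher (0.69 ± 0.18 SE, adjusted p = 0.0424), where 8.07% of kept probe sets were called higher and 8.38% lower. KIF20A missed the threshold (0.60 ± 0.17 SE, adjusted p = 0.0585), as did ECT2 (0.44 ± 0.18 SE, adjusted p = 0.139). The call of NUF2 was lost without any 1 of the 8 arrays. Leaving out an MT-2 array kept its estimate at 0.69, since those arrays do not enter the OR21 effect in MT-1. Leaving out an MT-1 array gave 0.62 or 0.75. With centred arrays the call was lost as well (0.52, adjusted p = 0.0746). Centring also turned the MT-1 count to 11 above 0 and 24 below, while the median of all kept probe sets moved from -0.05 to -0.21. Centring shifts every probe set of an array alike. The 0.10 between the median of the mitotic genes and that of all kept probe sets therefore could not change. In MT-2 the count below 0 was 33 with centred arrays and 31 with cyclic loess.

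The difference between the lines' responses to OR21, MT-1 minus MT-2, was tested in the same fit. It was above 0 for 33 of 35 mitotic genes (median 0.51, against -0.03 for all kept probe sets). Again 0 were called (2.68% of kept probe sets called higher and 1.41% lower), and 11 had an unadjusted p under 0.05, all of them higher in MT-1 (10.9% of kept probe sets higher and 11.1% lower). At that level stood 12 with cyclic loess, 12 with the stricter filter, 10 with no filter and 16 with the brightness-dependent prior. That count was 3 with centred arrays, 5 without any 1 of the MT-1 arrays and 3 without any 1 of the MT-2 arrays. With centred arrays, 1115 of 12942 kept probe sets were higher at that level and 1973 lower. The share of the 35 genes that were higher was then near that of all kept probe sets. With the values as deposited, the estimates were 1.003 ± 0.28 (SE, adjusted p = 0.0999) for UBE2C, 0.93 ± 0.26 (SE, adjusted p = 0.104) for DLGAP5 and 0.86 ± 0.25 (SE, adjusted p = 0.107) for NUF2. These were the 3 called with the brightness-dependent prior. For EPZ-6438, 0 mitotic genes were called in either line or between them (0.0232% of kept probe sets called higher in MT-1 and 0% in MT-2 or between the lines), and at an unadjusted p under 0.05 BUB1 was lower in MT-2 (-0.51 ± 0.18 SE, adjusted p = 0.402; 3.89% of kept probe sets) and higher in MT-1 minus MT-2 (0.74 ± 0.25 SE, adjusted p = 0.515; 4.16%).

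**Figure D5:**
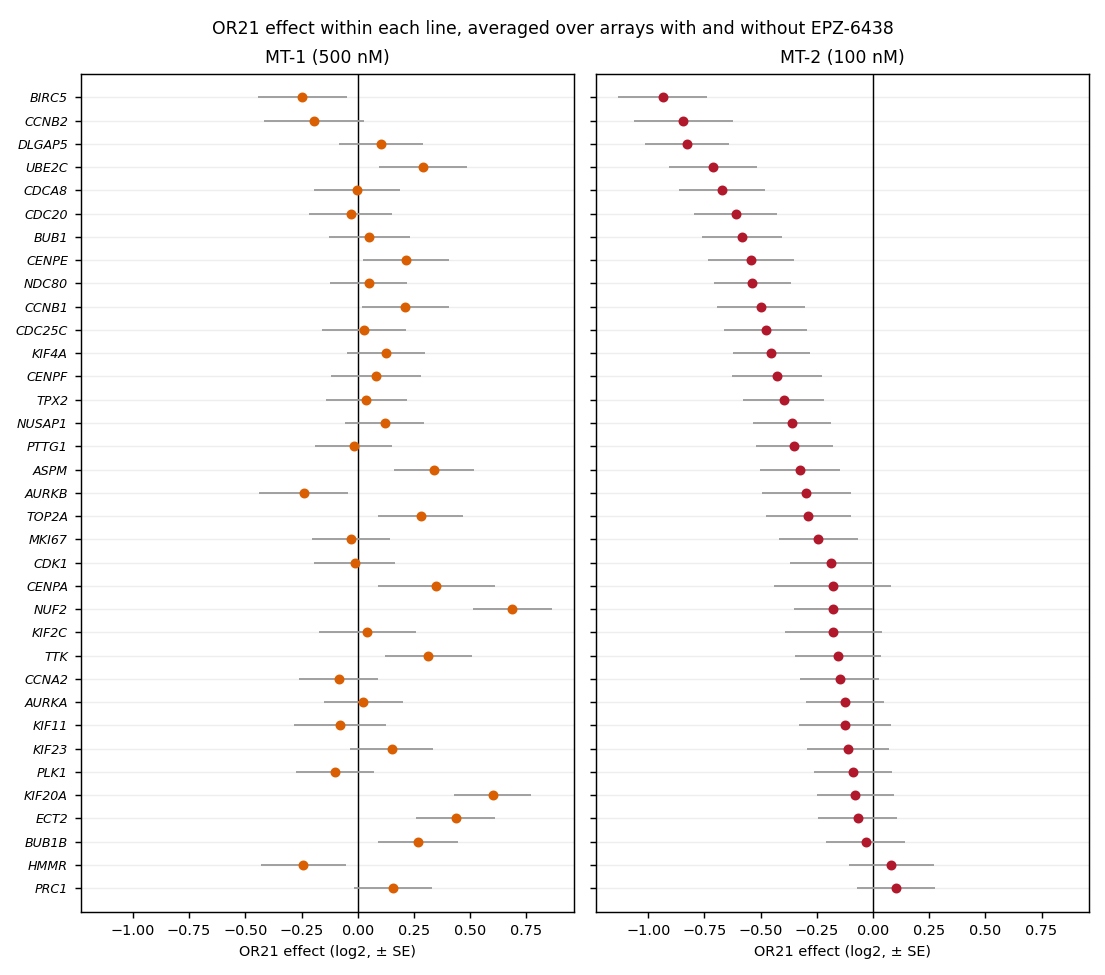
OR21 effect (log2, ± SE) within each line for 35 mitotic genes, from the factorial fit to all 8 arrays, MT-1 at 500 nM on the left and MT-2 at 100 nM on the right, ordered by the MT-2 effect. In MT-2, 33 of 35 lie below 0, and in MT-1, 12 of 35.

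Other genes of mitosis, 88 of 94 listed ones kept, had the following medians. In MT-1 they were 0.08 with OR21, 0.02 with EPZ-6438 and -0.08 with both agents, and in MT-2 they were -0.32, 0.01 and -0.40 in the same order. In MT-2, 34 of 88 were lower by 0.5 or more with both agents (15.1% of kept probe sets) and 2 were higher (16.4%). In MT-1, 25 were lower (25.7%) and 14 higher (22.4%), shares near or under those of all kept probe sets. The factorial fit called 2 higher and 3 lower with OR21 in MT-1, where 8.07% and 8.38% of kept probe sets were, and 5 lower with the stricter filter on dim signal. It called 0 in MT-2, although 80 of 88 estimates lay below 0 there and 24 had an unadjusted p under 0.05, all lower (8.55% of kept probe sets). CKAP2 (0.78 ± 0.20 SE, adjusted p = 0.0452) and the phosphatase CDC25B (0.84 ± 0.22 SE, adjusted p = 0.0481) were called higher in MT-1, while the anaphase-promoting complex subunit CDC26 (-0.74 ± 0.18 SE, adjusted p = 0.0367), the phosphatase CDC25A (-0.67 ± 0.17 SE, adjusted p = 0.042) and the centromere factor OIP5 (-0.68 ± 0.18 SE, adjusted p = 0.0436) were called lower. With both agents, the cytokinetic scaffold ANLN differed by 1.26 (MT-1) and 0.36 (MT-2), SKA1 of the outer kinetochore by 1.10 and at least 0.34, and SGO2, which protects centromeric cohesion, by 1.07 and 0.41. The lowest were CDC26 (-1.39 for MT-1, -0.64 for MT-2), CDC25A (-1.07, and -0.77 or lower) and the centromere protein CENPM (-1.03 and -0.76). Between the lines, 67 of 88 were called higher (40.7% of kept probe sets) and 3 lower (22.7%) in MT-1.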

How the data were processed

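The deposited log2 values of 8 arrays came from RMA, per the submitters' processing notes, a method that corrects background, normalizes across arrays and summarises probes. Its version and any later rescaling are not given in the sources used, and RMA by itself implies the log base, 2. Of 24351 entries, 2903 controls were left out. Of the 21448 transcript probe sets, 17709 had 1 gene symbol, 0 had several and 3739 had none in the platform annotation. Of the genes listed for comparison, those with no named probe set were not analysed here.

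Within a line, treated minus untreated values were counted at 0.5 and 1, with no test. Where 1 of 2 levels was under background, the difference was taken against the background and given as a bound. limma 3.58.1 in R 4.3.3 (lmFit, eBayes) was fitted to all kept probe sets with line and treatment (3 residual degrees of freedom), and, chosen after seeing the values, as a factorial model. Adjusted p-values are limma's with Benjamini-Hochberg, at a threshold of 0.05. Scripts were tested on simulated data. Precision is limited by how few arrays there are. The 35 genes and all lists were chosen with earlier results of these data known. All 35 genes are accounted for by role. Full values were given for AURKA, AURKB, PLK1, CDK1, CCNB1, CDC20, BIRC5, TOP2A and MKI67, for the 2 lowest and 2 highest genes per line and treatment, for the 3 highest and 3 lowest between the lines, and for up to 3 genes at each end of other lists. UBE2C was added after its values were seen. Alternatives were array centring, cyclic loess, filters, eBayes trend, a background floor, no cell line term and leaving out each array.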

Additional observations from a re-analysis of the deposited data

Results flagged for a closer look

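Of the 35 mitotic genes, 4 stood above untreated on all 3 treated MT-1 arrays and below untreated on all 3 treated MT-2 arrays, as did 5.61% of kept probe sets. BUB1 differed by 0.19 with OR21, 0.36 with EPZ-6438 and 0.28 with both in MT-1, and by -0.53, -0.46 and -1.09 with the same treatments in MT-2. BUB1B differed by 0.39 with OR21, 0.18 with EPZ-6438 and 0.32 with both in MT-1, and by -0.02, -0.27 and -0.31 with the same treatments in MT-2. CDCA8 differed by 0.06 with OR21, 0.22 with EPZ-6438 and 0.16 with both in MT-1, and by -0.89, -0.17 and -0.63 with the same treatments in MT-2. KIF2C differed by 0.38 with OR21, 0.44 with EPZ-6438 and 0.15 with both in MT-1, and by -0.14, -0.16 and -0.37 with the same treatments in MT-2. All 3 values of a line share 1 untreated array. With arrays centred on their medians, CDCA8 (-0.11 with OR21 and -0.08 with both) and KIF2C (-0.09 with both) turned negative in MT-1, and with cyclic loess BUB1B turned to 0.07 with OR21 in MT-2. BUB1 kept its directions in both scalings, but with centred arrays it differed by only 0.04 with both agents in MT-1. The opposite directions of the combination were not tested. The difference between the lines in the OR21 effect had an adjusted p of 0.208 for BUB1, 0.532 for BUB1B, 0.212 for CDCA8 and 0.723 for KIF2C by limma.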

How the results depend on the processing

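With arrays centred on their medians, mitotic genes higher by 0.5 or more in MT-1 numbered 1 with OR21 and 0 with EPZ-6438, those lower by 0.5 numbered 2 with OR21 and 2 with both agents, and the MT-1 median with both agents was -0.064. With cyclic loess, those higher in MT-1 numbered 7 with OR21, 2 with EPZ-6438 and 9 with both agents, those lower in MT-1 numbered 0 with EPZ-6438 and 0 with both, and those lower in MT-2 with OR21 numbered 5. ECT2 between the lines turned to -0.032 with cyclic loess. The cause was not tested. Using the mean of all probe sets of a gene changed nothing, since each has 1, and a background floor kept every median and every count at 0.5 within 1.5 times, but left 1 gene lower by 1 or more with OR21 in MT-2, against 2. In the additive fit with eBayes trend, 10 probe sets were called for the combination. With no replicate block (cell line left out of the fit), the mitotic genes and probe sets called stayed at 0 for the treatments, with 246 probe sets at an unadjusted p under 0.05 for the combination. In the factorial fit, mitotic genes called with OR21 in MT-1 numbered 0 with centred arrays, 2 with cyclic loess, 0 with no filter, 2 with the stricter filter and 2 with trend. With trend, mitotic genes called for OR21 numbered 4 in MT-2 and 3 between the lines, and probe sets called numbered 449 and 1134. For EPZ-6438 in MT-1, probe sets called numbered 1 with cyclic loess, 8 with no filter, 5 with the stricter filter and 103 with trend, in MT-2 22 with trend, and between the lines 1 with no filter and 5 with trend.

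Leaving out 1 array at a time called 27 to 31 mitotic genes and 6711 to 8167 probe sets between the lines, and 0 to 0 mitotic genes for each treatment, for the combination against single agents and in the factorial fit. Probe sets called ranged from 0 to 740 for both agents against untreated (740 without the MT-2 combination array), 0 to 72 for both against OR21, 0 to 231 for both against EPZ-6438 and 0 to 7 for the excess. In the factorial fit they ranged from 558 to 1781 for OR21 in MT-1, 0 to 167 in MT-2 and 51 to 969 between the lines, and for EPZ-6438 from 0 to 349 in MT-1, 0 to 0 in MT-2 and 0 to 141 between the lines. Where an arm kept 1 array, it was assumed to vary like the others. No depth applies to arrays, and signal near background limits CDC25C, BIRC5 and CENPA in MT-2.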

Other observations

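Genes that control mitotic transcription gave a mixed picture (21 of 22 listed genes kept). CDKN1A, the inhibitor p21 that turns mitotic genes off through the DREAM complex, stood at 6.99 with OR21, 4.70 with EPZ-6438, 9.46 with both and 4.33 untreated in MT-1, and at 12.96 with OR21, 12.85 with EPZ-6438, 13.19 with both and 12.41 untreated in MT-2. In MT-1 it was above background with both agents only, by at least 2.0, and the OR21 value lay under background. FOXM1, which drives late cell cycle genes, differed by -0.08 with OR21, 0.20 with EPZ-6438 and -0.23 with both in MT-1, and by -0.15 with OR21, -0.02 with EPZ-6438 and 0.11 with both in MT-2. MYBL2, its partner on MuvB, differed by 0.43 with OR21, -0.02 with EPZ-6438 and -0.05 with both in MT-1, and by 0.36 with OR21, 0.23 with EPZ-6438 and 0.42 with both in MT-2. E2F8, a repressing E2F, differed by 1.09 with OR21, 0.61 with EPZ-6438 and 1.47 with both in MT-1, and by 0.27 with OR21, 0.97 with EPZ-6438 and 0.70 with both in MT-2, and its OR21 effect in MT-1 was called (0.97 ± 0.20 SE, adjusted p = 0.0242). Of the 21, 2 were called higher with OR21 in MT-1 (8.07% of kept probe sets), E2F8 and CDKN1A. The OR21 effect of CDKN1A was also called higher in MT-1 than in MT-2 (2.68% of kept probe sets). With 3 of 4 MT-1 arrays of CDKN1A under background, its fitted size is not given. E2F1 differed by -0.83 (MT-1) and -0.27 or lower (MT-2) with both agents, and RBL2, a pocket protein of DREAM, by 0.91 (MT-1) and 0.51 (MT-2).

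DNA replication genes (29 of 30 listed genes kept) had MT-1 medians of -0.08 with OR21, 0.04 with EPZ-6438 and -0.25 with both agents, and MT-2 medians of -0.30, -0.06 and -0.57 in the same order. With both agents 15 of 29 were lower by 0.5 or more in MT-2 (15.1% of kept probe sets) and 8 in MT-1 (25.7%), the second a share near that of all kept probe sets. In the treatment comparisons of both fits 0 were called by limma, and with the stricter filter the factorial fit called 1 lower with OR21 in MT-1 and 1 lower with OR21 in MT-2. At an unadjusted p under 0.05, OR21 in MT-2 held 10 lower (8.55% of kept probe sets) and 0 higher (7.67%). OR21 in MT-1 held 8 lower and 0 higher at that level, where 2361 and 1890 of 12942 kept probe sets were. Between the lines, 23 of 29 were called higher (40.7% of kept probe sets) and 0 lower (22.7%) in MT-1. MCM6 of the replicative helicase differed by -0.54 with OR21, 0.07 with EPZ-6438 and -0.57 with both in MT-1, and by -1.14 with OR21, -0.24 with EPZ-6438 and -1.28 with both in MT-2. POLA1, the catalytic subunit of DNA polymerase alpha, differed by -0.43 with OR21, -0.37 with EPZ-6438 and -1.01 with both in MT-1, and by -0.94 with OR21, -0.08 with EPZ-6438 and -0.69 with both in MT-2. CCNE2, the cyclin of replication onset, differed in the other direction, by 1.39 with EPZ-6438 and 1.36 with both agents in MT-2 before background is considered, and it stood above background on 4 of 8 arrays.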
